A study of Mus musculus with 18 samples.

Results

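The 3 Nr4a orphan nuclear receptors, Nr4a1, Nr4a2 and Nr4a3, were followed array by array in the dura mater of 18 mice. A probe set was taken for a member when the platform annotation gave it exactly 1 gene symbol and that symbol was the member's. Each gene had 1 such probe set, 10427035 for Nr4a1 (gene ID 15370), 10482772 for Nr4a2 (gene ID 18227) and 10504838 for Nr4a3 (gene ID 18124), so that the members were 3 of 19937 genes and 3 of 21640 probe sets tested. The genes were chosen by their measured stroke differences in earlier results on the same arrays. Their stroke differences are therefore given below as values without a p-value. Counts of calls among the members in these contrasts are a description only, and tests are kept for comparisons that the stroke differences do not enter.

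The dura, the fibrous outer covering of the brain, was taken from male mice of 17 to 21 weeks after perfusion, and each dura was hybridised to its own Affymetrix array. Wild-type mice were WBB6F1-Kit+/+. Deficient mice were WBB6F1-KitW/W-v, which carry a pair of mutant Kit alleles and lack mast cells. Engrafted mice were WBB6F1-KitW/W-v mice that had received mast cells by vein 8 to 10 weeks earlier. In each of these 3 categories 3 mice were naive and 3 had a stroke, in which a filament blocked the middle cerebral artery for 30 minutes, with the dura taken 2 days later. No sham-operated mice were analysed here, so a stroke difference includes whatever the operation itself did. Kit mutations reach other Kit-dependent cells besides mast cells, and engrafted mice keep those mutations, so the deficient and engrafted categories differ from wild type in more than mast cells.

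NR4A proteins are nuclear receptors without a known natural ligand in the usual pocket, and their activity follows mainly how much of them a cell makes. Their genes belong to the immediate early response: cAMP and calcium signals, acting through CREB and MEF2 factors, switch them on quickly and for a short time. Nr4a1 (Nur77) is known from T cell receptor signalling and from the survival of patrolling monocytes, Nr4a2 (Nurr1) from the development of dopamine neurons, and Nr4a3 (Nor1) from muscle and blood cells. NR4A proteins bind DNA as single molecules or as pairs, and Nr4a1 and Nr4a2 can also bind beside a retinoid X receptor (RXR).

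The promoter windows are shown first because the members moved together and because CREB, their best known activator, binds the cAMP response element or its core alone. Each window ran from 250 bases before to 50 bases after the annotated start, as RefSeq gives it on GRCm38.p6, and is printed 5′ to 3′ on the gene's strand. Capitals mark the core TGACG, or CGTCA where it lies on the opposite strand.
Nr4a1: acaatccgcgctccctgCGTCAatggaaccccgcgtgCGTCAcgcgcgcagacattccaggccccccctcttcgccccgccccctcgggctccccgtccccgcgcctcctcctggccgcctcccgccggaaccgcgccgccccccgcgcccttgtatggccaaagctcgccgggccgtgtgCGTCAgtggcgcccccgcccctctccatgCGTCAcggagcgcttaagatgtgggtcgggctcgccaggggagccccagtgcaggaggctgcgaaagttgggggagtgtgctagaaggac
Nr4a2: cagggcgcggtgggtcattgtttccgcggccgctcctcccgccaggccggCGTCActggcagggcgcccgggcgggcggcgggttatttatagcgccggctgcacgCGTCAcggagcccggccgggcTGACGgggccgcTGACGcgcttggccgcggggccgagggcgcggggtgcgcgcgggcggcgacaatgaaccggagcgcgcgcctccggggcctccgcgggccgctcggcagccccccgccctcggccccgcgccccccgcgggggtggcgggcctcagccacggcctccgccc
Nr4a3: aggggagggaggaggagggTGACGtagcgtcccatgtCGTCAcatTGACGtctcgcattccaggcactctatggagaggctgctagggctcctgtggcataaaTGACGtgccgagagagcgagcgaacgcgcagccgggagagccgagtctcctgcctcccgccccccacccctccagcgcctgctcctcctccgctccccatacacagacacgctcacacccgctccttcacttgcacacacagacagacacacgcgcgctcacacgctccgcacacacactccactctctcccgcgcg
The Nr4a1 window lies at chr15:101266596-101266895 on the plus strand, the Nr4a2 window at chr2:57123954-57124253 on the minus strand and the Nr4a3 window at chr4:48045055-48045354 on the plus strand. Each of the 3 windows held exactly 4 cores, all before the start. In Nr4a1 all 4 lay on the opposite strand and began 233, 213, 69 and 40 bases before the start. In Nr4a2 they began 200, 144, 123 and 111 bases before it, and in Nr4a3 231, 213, 205 and 147 bases before it. Of 32851 windows of the same length, 20.8% held at least 1 core and 76, or 0.231%, held 4 or more. The members' windows were rich in G and C, at 72.3% for Nr4a1, 81.7% for Nr4a2 and 64.7% for Nr4a3 against a median of 52.7%. Among the 6218 windows with at least the G and C content of Nr4a3, 32.4% held at least 1 core and 35 (0.563%) held 4 or more.

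**Figure D1:**
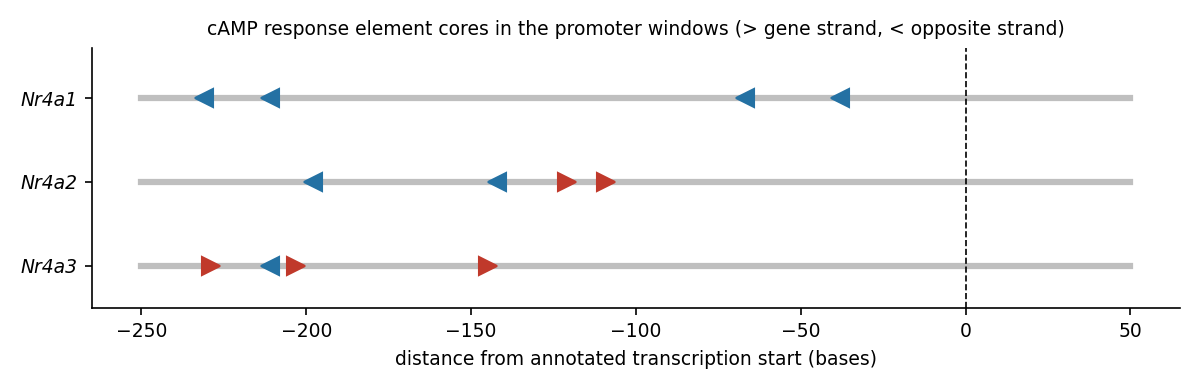
Position of each TGACG core in the promoter windows of Nr4a1, Nr4a2 and Nr4a3; the x axis is the distance in bases from the annotated start, right-pointing marks lie on the gene's strand and left-pointing marks on the opposite strand. Each window holds 4 cores, and 2 of those of Nr4a1 lie within 69 bases of the start.

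The full element TGACGTCA was searched on both strands and was in none of the 3 windows, against 1.79% of all windows. AAAGGTCA, the element that NR4A proteins bind as single molecules, was also in none, against 1.51%. The Nr4a2 window alone among them held a MEF2 site, which 3.19% of all windows held, with a TATAAA overlapping it on the opposite strand. Of the genes in the lists used below that had a window, the core was in 7 of 8 other cAMP-induced genes, 13 of 21 other immediate early genes and 12 of 40 other nuclear receptors. A gene was counted here when any of its windows held the core, whereas the shares of all windows count each window once. These are matches of letters in 300 bases, and nothing on the binding of a factor was measured.

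On the arrays, Nr4a1 had log2 levels of 11.26, 11.38 and 11.23 in wild-type naive dura and 9.27, 9.20 and 9.55 in wild-type stroke dura. In deficient mice it stood at 10.95, 11.36 and 10.10 when naive and at 9.02, 9.86 and 9.03 after stroke. In engrafted mice the naive arrays gave 9.95, 9.91 and 9.90 and the stroke arrays 8.58, 9.09 and 9.08. The naive wild-type mice thus lay close together and high, the naive deficient mice were spread widely, and the naive engrafted mice lay close together and below all other naive mice. Naive and stroke arrays did not overlap within any category. Over all categories the lowest naive array, at 9.90, and the highest stroke array, at 9.86, were only 0.04 apart.

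Nr4a2 measured 10.81, 11.12 and 11.05 in naive wild-type dura against 9.50, 9.31 and 9.46 after stroke. Deficient dura gave 10.74, 11.19 and 10.29 when naive and 9.49, 9.72 and 9.29 after stroke. Engrafted dura gave 10.13, 10.28 and 10.04 when naive and 9.32, 9.47 and 9.42 after stroke. Every naive array was above every stroke array, with 0.32 between the lowest naive array, an engrafted one, and the highest stroke array, a deficient one.

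Nr4a3 measured 9.60, 9.83 and 10.27 in naive wild-type dura against 8.13, 7.33 and 7.99 after stroke. Deficient dura gave 9.57, 10.26 and 9.66 when naive and 7.83, 8.28 and 7.94 after stroke. Engrafted dura gave 9.37, 9.53 and 9.42 when naive and 7.76, 7.75 and 8.06 after stroke. Nr4a3 separated naive from stroke dura most widely of the 3 genes, with 1.09 between the lowest naive and the highest stroke array.

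**Figure D2:**
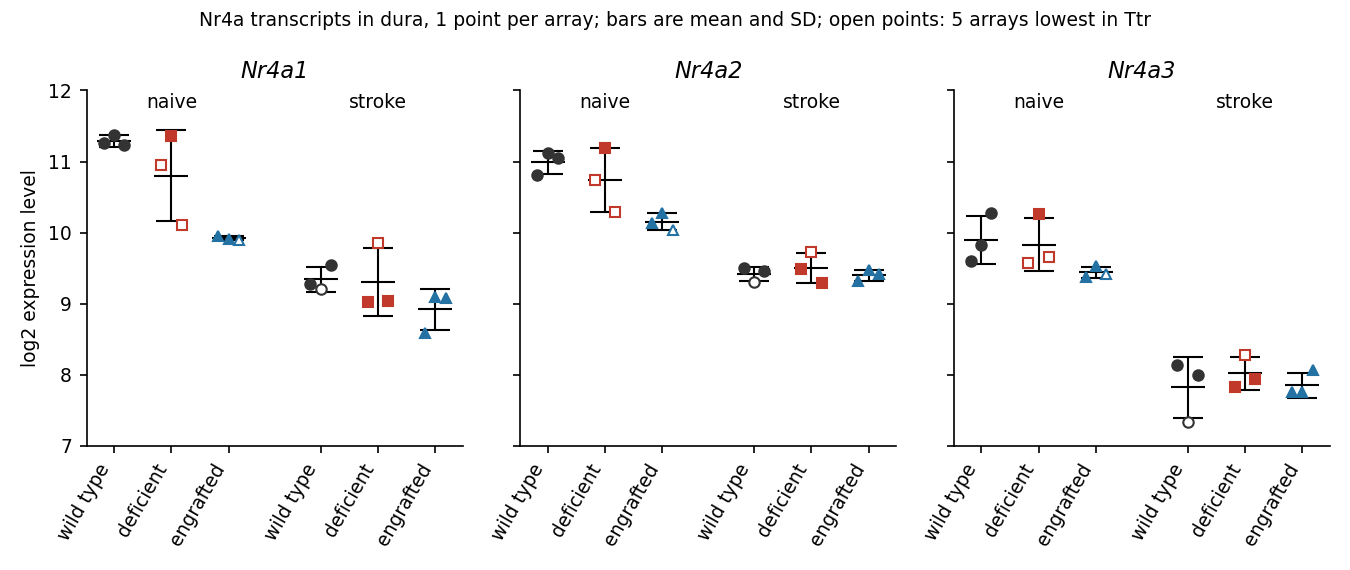
Log2 expression level (y axis) of Nr4a1, Nr4a2 and Nr4a3 in each of the 18 arrays by group (x axis); points are arrays, horizontal bars the group mean and SD of 3 arrays, and open points the 5 arrays lowest in the choroid plexus gene Ttr. Every naive array lies above every stroke array in all 3 panels, by only 0.04 for Nr4a1.

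The order of the group means was the same for the 3 genes in naive dura and not in stroke dura. Nr4a1 averaged 11.29 ± 0.08 (SD, n = 3) in wild-type, 10.80 ± 0.64 in deficient and 9.92 ± 0.03 in engrafted mice when naive. It then averaged 9.34 ± 0.18, 9.30 ± 0.48 and 8.92 ± 0.29 in the stroke groups in the same order. For Nr4a2 the naive means were 10.99 ± 0.16, 10.74 ± 0.45 and 10.15 ± 0.12, and the stroke means 9.42 ± 0.10, 9.50 ± 0.21 and 9.40 ± 0.08. For Nr4a3 the naive means were 9.90 ± 0.34, 9.83 ± 0.37 and 9.44 ± 0.08, and the stroke means 7.82 ± 0.43, 8.02 ± 0.23 and 7.85 ± 0.18. In each gene the arrays of the naive wild-type and naive deficient groups overlapped, those of the naive engrafted group overlapped neither the group above nor the group below in this order, and neighbouring stroke groups overlapped. The naive engrafted and naive deficient groups nearly met, however. The highest engrafted and lowest deficient naive arrays were 10.28 and 10.29 for Nr4a2, 9.53 and 9.57 for Nr4a3, and 9.95 and 10.1 for Nr4a1. The categories were thus further apart in naive than in stroke dura: the span from the highest to the lowest category mean was 1.37 against 0.43 for Nr4a1, 0.84 against 0.10 for Nr4a2 and 0.46 against 0.20 for Nr4a3. How many of all probe sets separate groups, or naive from stroke arrays, without overlap was not counted. The separations given here are therefore not set against such a share.

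As stroke minus naive differences, Nr4a1 gave -1.95 ± 0.26 (SE) in wild type, -1.50 ± 0.26 in deficient and -1.0 ± 0.26 in engrafted mice, which are 3.86-fold, 2.83-fold and 2.00-fold lower levels after stroke. Nr4a2 gave -1.57 ± 0.17, -1.24 ± 0.17 and -0.74 ± 0.17 in that order (2.96-fold, 2.37-fold and 1.67-fold lower). Nr4a3 gave -2.08 ± 0.22, -1.81 ± 0.22 and -1.59 ± 0.22 (4.23-fold, 3.51-fold and 3.00-fold lower). In whole dura, fewer cells of a type and less RNA per cell cannot be told apart. With limma's adjusted p under 0.05 as the call, 3 of 3 members were called lower in wild type, where 4.63% of all probe sets were, and 3 of 3 in deficient mice, where 0.125% were. In engrafted mice 2 of 3, Nr4a2 and Nr4a3, were called lower against 0.236% of all probe sets. In either direction, 10.9%, 0.250% and 1.11% of all probe sets were called in wild-type, deficient and engrafted mice, and 13.5% in the average over categories. The members' counts come from the contrasts that led to the choice of the genes and carry no further weight. Among 21640 differences ordered from the most negative, Nr4a3 stood second in wild type, first in deficient and second in engrafted mice, while Nr4a2 stood at 14, 3 and 46 and Nr4a1 at 4, 2 and 16.

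In the main fit, with all arrays and without weights or covariates, the stroke difference shrank from wild type to deficient to engrafted mice in each gene. This too is a description, because it is built from the same contrasts. For Nr4a3 the order did not hold in every fit of all arrays. Its deficient value was -1.48 with array weights. Its wild-type value was -1.55 with scores of neuron and choroid plexus markers as covariates. The engrafted value of Nr4a3 stayed between -1.63 and -1.58 in all settings other than single arrays left out. The step from wild type to deficient mice also depended on the arrays. Without the 5 arrays lowest in Ttr, the deficient differences were -2.34, -1.80 and -2.37, larger falls than in wild type, with 1 deficient naive array left. The engrafted stroke difference exceeded that of wild type by 0.95 ± 0.37 (SE) for Nr4a1, 0.82 ± 0.24 for Nr4a2 and 0.50 ± 0.31 for Nr4a3, in the direction of a smaller fall. The deficient stroke difference exceeded that of wild type by 0.45 ± 0.37, 0.33 ± 0.24 and 0.27 ± 0.31. Both sets of values share the wild-type arrays. The categories stood further apart in the naive groups: naive engrafted dura lay below naive wild-type dura by -1.37 ± 0.26 for Nr4a1, -0.84 ± 0.17 for Nr4a2 and -0.46 ± 0.22 for Nr4a3, whereas the stroke groups of these categories differed by -0.43 ± 0.26, -0.02 ± 0.17 and 0.03 ± 0.22.

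Category differences averaged over naive and stroke dura do not enter any stroke contrast, and they were tested over all 21640 probe sets. Nr4a1 was lower in engrafted than in wild-type mice by 0.90 on average, a difference of -0.90 ± 0.18 (SE; 95% interval -1.29 to -0.51) or 1.86-fold, with limma's adjusted p = 0.0563, just short of the threshold. For Nr4a2 the engrafted minus wild-type difference was -0.43 ± 0.12 (interval -0.68 to -0.18; limma adjusted p = 0.142). For Nr4a3 it was -0.21 ± 0.15 (interval -0.54 to 0.11; limma adjusted p = 0.468). Thus 0 of 3 members passed in this comparison, in which 0.287% of all probe sets did, and 2 of 3 had an unadjusted limma p under 0.05, as had 3743 of the 21640 probe sets. The call on Nr4a1 turned on the settings. Its limma adjusted p was 0.013 with only the compared groups in the fit and up to 0.0923 under other settings. In 15 of 18 fits without a single array it stayed uncalled, with an adjusted p of up to 0.165. It passed without deficient naive replicate 2 (0.029), deficient naive replicate 3 (0.0185) or deficient stroke replicate 2 (0.0385). These are arrays outside the comparison that enter only its estimate of the spread. Without the 5 arrays lowest in Ttr, with 1 deficient naive array left, the difference was -0.93.

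Engrafted minus deficient differences were -0.64 ± 0.18 (interval -1.03 to -0.24; limma adjusted p = 0.956) for Nr4a1 and -0.35 ± 0.12 (interval -0.60 to -0.09; limma adjusted p = 1) for Nr4a2. Nr4a3 gave -0.28 ± 0.15 (interval -0.61 to 0.05; limma adjusted p = 1). Again 0 of 3 members passed, against 0.0323% of all probe sets, and 2 of 3 were under 0.05 before adjustment, as were 575 probe sets in all. Deficient and wild-type mice gave the smallest differences: -0.26 ± 0.18 (interval -0.66 to 0.13) for Nr4a1, -0.09 ± 0.12 (interval -0.34 to 0.16) for Nr4a2 and 0.06 ± 0.15 (interval -0.26 to 0.39) for Nr4a3, with limma's adjusted p of 0.483, 0.73 and 0.855. In that comparison 0 of 3 passed against 1.11% of all probe sets, and 0 of 3 were under 0.05 before adjustment, against 3423 probe sets. The intervals still allow Nr4a1 to be lower in deficient than in wild-type mice by up to 0.66. These 3 comparisons share groups and are not independent of one another.

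**Figure D3:**
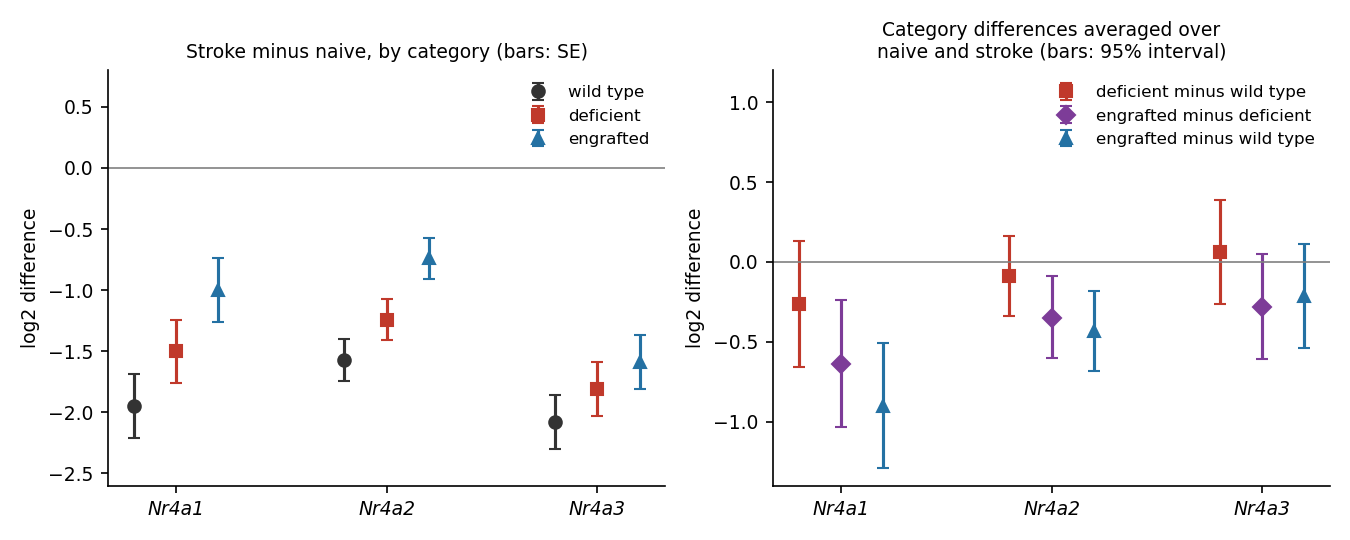
Left, stroke minus naive difference (log2, y axis) of each member by category with its SE; right, category differences averaged over naive and stroke dura with 95% intervals. On the left all 9 values are negative, from -2.08 to -0.74; on the right the engrafted minus wild-type and engrafted minus deficient intervals of Nr4a1 and Nr4a2 lie below 0, and no difference passed after adjustment.

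Pooled over groups, replicate mice differed more in these genes than in most, but not in every group. For Nr4a1 the SD was 0.64 in naive and 0.48 in stroke deficient dura, against 0.08 in naive wild-type and 0.03 in naive engrafted dura. For Nr4a3 it was largest in wild-type stroke dura, at 0.43. The pooled SD within groups was 0.36 for Nr4a1, 0.22 for Nr4a2 and 0.30 for Nr4a3, against a median of 0.12 over all probe sets. Once each group's mean was removed, the deviations of Nr4a1 and Nr4a2 went together over the 18 arrays (Pearson r = 0.85, exact permutation p = 0.00619, adjusted p = 0.0372; Spearman rho = 0.69, exact permutation p = 0.0117, adjusted p = 0.0547). Both p are two-sided, come from reordering arrays within groups and were adjusted over 6 relations computed. Without deficient naive replicate 3 and deficient stroke replicate 2, the arrays farthest out in Nr4a1, r was 0.59 (exact permutation p = 0.0621, adjusted p = 0.186), so the relation past the threshold rests on those arrays. Of the 21638 other probe sets, 2 had deviations that followed those of Nr4a1 with an r at least as high as that of Nr4a2. At least as high as the r of Nr4a3 were 724 (3.35%) with Nr4a1 and 210 (0.971%) with Nr4a2. Counted from Nr4a3, 1579 (7.3%) reached the r of Nr4a1 and 696 (3.22%) that of Nr4a2. For Nr4a2 and Nr4a3, r was 0.64 (rho = 0.68; exact permutation p = 0.026 and 0.0182, adjusted p = 0.052 and 0.0547), and 0.62 without deficient naive replicates 2 and 3 (adjusted p = 0.186). For Nr4a1 and Nr4a3, r was 0.50 (rho = 0.46; exact permutation p = 0.109 and 0.14, adjusted p = 0.131 and 0.21), and 0.45 without the outlying pair of arrays (adjusted p = 0.318).

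**Figure D4:**
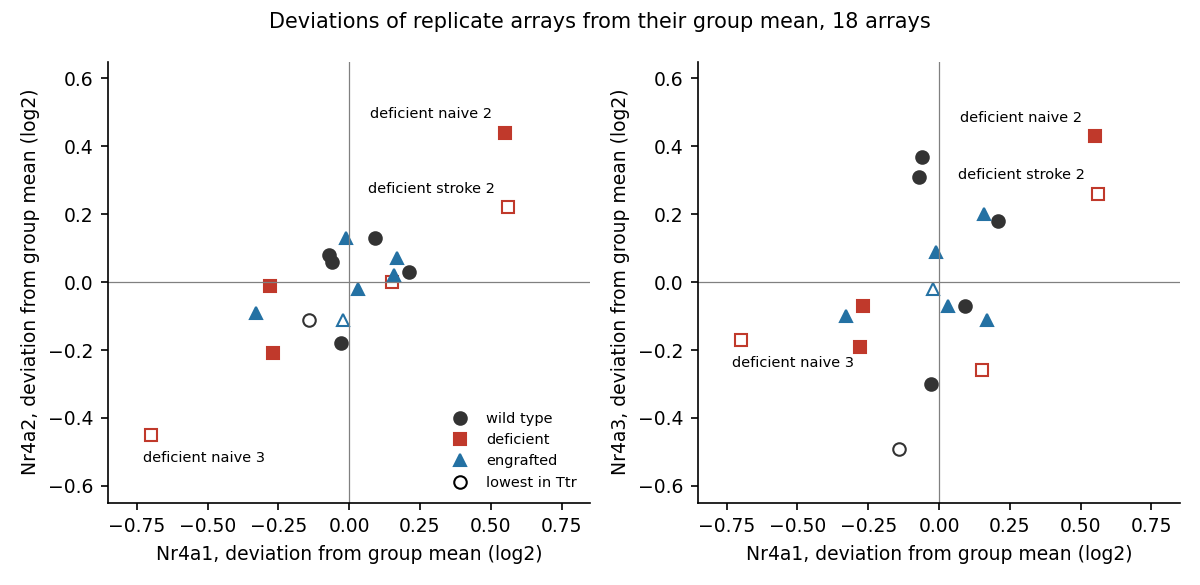
Deviation of each array from its group mean in Nr4a1 (x axis, log2) against that in Nr4a2 (left) and Nr4a3 (right); symbols give the category, and open symbols the 5 arrays lowest in Ttr. The r of 0.85 on the left falls to 0.59 without deficient naive replicate 3 and deficient stroke replicate 2, which lie at the ends.

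After stroke, limma's unadjusted p was under 0.05 for 5622, 2918 and 2353 of the 21640 probe sets in wild-type, deficient and engrafted mice. Limma called 10.9%, 0.250% and 1.11% of all probe sets in that order. Beside these shares, which hold for the marker lists below too, the other measured genes of the pathway were counted by list, starting with the regulators upstream. Of 13 such genes, which encode CREB and MEF2 factors, their CRTC coactivators and the class IIa histone deacetylases that hold MEF2 in check, 0 were called after stroke in any of the 3 categories. Before limma's adjustment, p was under 0.05 for 0, 2 and 2 of them in wild-type, deficient and engrafted mice. Median differences of the list were -0.04 in wild type, -0.06 in deficient and -0.06 in engrafted mice, against 0.01, 0.04 and -0.01 over all probe sets. Hdac7, one of those deacetylases, gave positive differences of 0.13, 0.20 and 0.10 in wild-type, deficient and engrafted mice. Hdac4 gave -0.01, -0.12 and -0.27 in that order, Hdac5 -0.08, -0.02 and -0.14, and the coactivator gene Crtc3 -0.01, -0.03 and -0.21. These values lay nearer to 0 than those of the Nr4a genes, and the arrays do not measure whether the proteins were active.

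The RXR partners and the other nuclear receptors gave small differences of either sign. Of the 3 RXR genes, limma called 0 in any category, with 1, 1 and 0 under an unadjusted p of 0.05 in wild-type, deficient and engrafted mice. Rxra gave 0.16 ± 0.07 (SE), 0.26 ± 0.07 and 0.07 ± 0.07 in wild-type, deficient and engrafted mice, and its average over categories, 0.16 ± 0.04, was called higher (limma adjusted p = 0.016). Rxrb gave 0.10, 0.08 and 0.06, and Rxrg -0.09, 0.12 and -0.39, with no call. In wild type after stroke, 10.9% of all probe sets were called in either direction, a share close to that of the other nuclear receptors. Of 42 measured nuclear receptor genes outside the Nr4a family, the RXR genes included, 1 rose and 3 fell there. In deficient and engrafted mice limma called 0 of them, with 8 and 9 under 0.05 before adjustment. Rarb, the retinoic acid receptor beta, rose by 0.77 ± 0.10 (limma adjusted p = 1.71e-04) in wild type. Thra, the thyroid hormone receptor alpha, fell by 0.48 ± 0.10 there (limma adjusted p = 0.00508), a call lost with neuron and choroid plexus scores as covariates (-0.24, adjusted p = 0.106). Nr3c2, the mineralocorticoid receptor, gave -0.44 and Pparg -0.25. Nr3c2 and Pparg were named after their values were seen, to complete the count, which was 2 rather than 3 without wild-type naive replicate 2 or 3 or wild-type stroke replicate 3. The list's median differences were 0.01, 0.06 and -0.05, close to those over all probe sets. On average over categories, limma called 7 of the 42 higher and 4 lower, against 13.5% of all probe sets in either direction. Among those higher on average were Nr1d2 (0.37 ± 0.07, limma adjusted p = 0.00371) and Nr5a2 (0.21 ± 0.04, limma adjusted p = 0.00424).

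Other genes switched on by cAMP gave smaller differences than the members. Of 10 measured, 2 fell and 1 rose in wild type, and limma called 0 in deficient or engrafted mice, where 3 and 3 were under 0.05 before adjustment. The medians were -0.08, -0.26 and -0.18. On average over categories, 4 of the 10 were called lower and 1 higher, against 13.5% of all probe sets in either direction. Sik1, a kinase that restrains the CRTC coactivators, gave 10.27 to 10.61 in naive wild-type arrays and 9.55 to 10.09 after stroke, without overlap. Its stroke difference was -0.63 ± 0.14 (limma adjusted p = 0.0114), -0.28 ± 0.14 and -0.22 ± 0.14 in the order wild type, deficient, engrafted. The wild-type call was lost without wild-type naive replicate 2 (limma adjusted p = 0.0555) or wild-type stroke replicate 2 (0.0579), and with neuron and choroid plexus scores as covariates (-0.49, 0.0689). Pde4d, which breaks down cAMP, gave -0.45 ± 0.09 (limma adjusted p = 0.00682), -0.33 and -0.21 on the probe set that stands for it, and its wild-type call was lost with the same covariates (-0.30, limma adjusted p = 0.12). Per1, a clock gene, gave -0.37 ± 0.17, -0.57 ± 0.17 and -0.57 ± 0.17 with no call in a single category, and was called lower on average (-0.50 ± 0.10, limma adjusted p = 0.00262). Crem, which encodes a cAMP-responsive repressor and activator, gave -0.39, -0.23 and -0.28, and its average was called lower too (-0.30 ± 0.07, limma adjusted p = 0.01). The gene that rose in wild type was Ptgs2, the inducible cyclooxygenase, at 0.66 ± 0.20 (limma adjusted p = 0.0478), named after its value was seen. That call was lost with only the compared groups in the fit, with a trended variance, with all probe sets tested, without the 5 arrays lowest in Ttr, and in 15 of 18 fits without a single array, wild-type naive replicate 1 among them.

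Immediate early genes outside the family were called in both directions. Of 26 others, all measured, 2 rose and 2 fell in wild type, 1 fell in deficient mice and limma called 0 in engrafted mice, with 10, 11 and 8 under 0.05 before adjustment. On average over categories, 13.5% of all probe sets were called in either direction. In this list more fell than rose, 8 against 2, and 19 of 26 differences were negative. The medians were -0.07, -0.26 and -0.15, and the wild-type median turned to 0.23, with 4 called higher and 2 lower, when neuron and choroid plexus scores were covariates. Fos, the gene most used as a mark of recent activity, gave 0.07 ± 0.23, -0.26 ± 0.23 and 0.08 ± 0.23. Fosl1 and Ier3 rose in wild type, by 0.91 ± 0.08 (limma adjusted p = 6.21e-06) and 0.80 ± 0.11 (limma adjusted p = 2.81e-04). Btg2 at -0.46 and Klf2 at -0.42 fell, and were named after their values were seen; both calls were lost without wild-type naive replicate 2 or wild-type stroke replicate 1. Arc, which acts at synapses and was also named after its values were seen, gave -0.91 ± 0.44, -0.64 ± 0.44 and -1.10 ± 0.44 without a call in a category, and the engrafted value was beyond those of Nr4a1 and Nr4a2. Fosb, a partner of Jun proteins, gave -0.44, -0.81 and -0.54 without a call in a category, and -0.60 ± 0.12 on average (limma adjusted p = 0.00322). The call in deficient mice was Fosl2, at -0.67 ± 0.13 (limma adjusted p = 0.0451). It was lost with only the compared groups in the fit (0.247) and with all probe sets (0.0666). It was lost also in 14 of 18 fits without a single array, among them those without any of the 6 deficient arrays (0.0528 to 0.22).

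**Figure D5:**
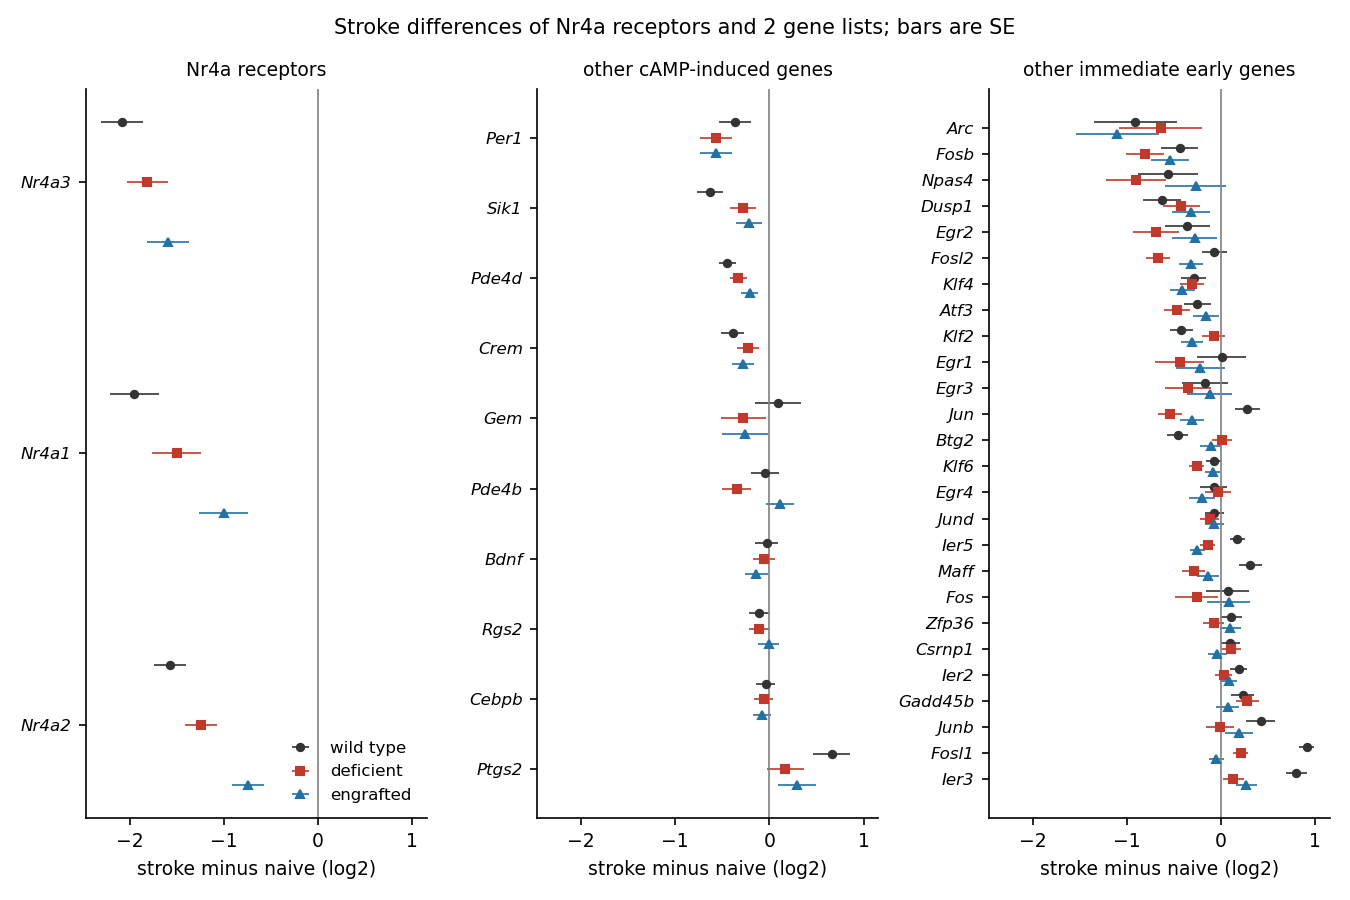
Stroke minus naive difference (log2, x axis) with its SE by category for the 3 Nr4a genes, 10 other cAMP-induced genes and 26 other immediate early genes (y axis). In wild type the Nr4a values, from -2.08 to -1.57, lie left of every gene of the other lists, whose called members run from -0.63 to 0.91; in engrafted mice Arc, at -1.10 without a call, lies left of Nr4a1 and Nr4a2.

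In the averaged engrafted minus wild-type comparison, where Nr4a1 and Nr4a2 had intervals below 0, 1 cAMP-induced gene and 2 immediate early genes were called lower. Sik1 gave -0.57 ± 0.10 (limma adjusted p = 0.036). Csrnp1 gave -0.44 ± 0.07 (limma adjusted p = 0.0214) and Atf3, a stress-induced factor, -0.62 ± 0.10 (limma adjusted p = 0.0219); these were named after their values were seen. The Sik1 call was lost without any of 9 single arrays, among them engrafted naive replicate 3 (limma adjusted p = 0.117), and without the 5 arrays lowest in Ttr (0.0613). It was lost also with the replicate block (0.064), with only the compared groups (0.0543), with all probe sets (0.0601) and with covariates (0.0678). Jun gave -0.42 ± 0.09 (limma adjusted p = 0.0716) and Fos -0.30 ± 0.16 (limma adjusted p = 0.333). The median over the 26 immediate early genes was -0.21 and that over the 10 cAMP-induced genes -0.21, against -0.00 over all probe sets.

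Genes reported elsewhere as NR4A targets showed no change past the threshold. Of 17 measured, which include genes of dopamine synthesis, steroid synthesis, glucose metabolism and T cell restraint, limma called 0 after stroke in any category, and 2, 3 and 1 were under 0.05 before adjustment. The medians were 0.07, 0.13 and -0.04. Pdcd1, which encodes the T cell receptor PD-1, gave 0.16, 0.23 and -0.01, and Star, which brings cholesterol into steroid synthesis, -0.12, 0.08 and -0.20. Most of these genes are used in tissues other than dura.

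The genes with the array profile most like each member were found by the root mean square difference of log2 values over 18 arrays, after each gene was centred on its own mean. For Nr4a1 the nearest genes were Nr4a2 (0.30), Nr4a3 (0.43), Kcne4 (0.44), Pde4d on probe set 10407124 (0.55) and Cd83 (0.62). For Nr4a2 they were Kcne4 (0.23), Nr4a1 (0.30), Pde4d on the same probe set (0.34), Cd83 (0.37) and Nr4a3 (0.39). For Nr4a3 they were Nr4a2 (0.39), Nr4a1 (0.43), Sfrp2 (0.52), Kcne4 (0.54) and Omd (0.54). Each member had both others among its 5 nearest genes, which restates in part the stroke differences that led to their choice, since those make up much of each profile. Kcne4, a potassium channel subunit, gave stroke differences of -1.23, -0.87 and -0.50 in wild-type, deficient and engrafted mice, the same order of sizes as in the members in the main fit. Sfrp2, a secreted regulator of Wnt signals, gave -1.61, -1.22 and -1.20, but its naive mean was lowest in wild type (11.41, against 11.85 in deficient and 11.65 in engrafted mice). Omd, a matrix protein of bone and connective tissue, likewise had its lowest naive mean in wild type, at 10.20 against 10.58 and 10.47. Cd83, a surface protein of activated dendritic cells and lymphocytes, gave -0.90, -0.58 and -0.48. The Pde4d probe sets differed: 10407124 gave -0.72, -1.01 and -0.27, larger in deficient mice than the -0.33 of the other. The list depends on the measure, since by Pearson r over the 6 group means 0 of the 5 genes recurred for any member.

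Markers of other tissue and of other cells were measured beside the members, and some moved with them. Neuron markers were measured in all arrays, 10 of 10, and their mean log2 level ran from 10.17 to 10.78 in naive and from 9.36 to 9.78 in stroke wild-type arrays. In deficient mice the ranges were 10.17 to 11.09 and 9.76 to 10.52, and in engrafted mice 10.43 to 10.74 and 10.09 to 10.79. In wild type all 10 neuron markers had negative stroke differences with a median of -0.81, 10 were under 0.05 before adjustment and limma called 4 lower: Nefl at -1.34, Gad1 at -0.94, Syn1 at -0.77 and Snap25 at -0.40. Of these, Nefl, Gad1 and Syn1 were named after their values were seen. The medians were -0.31 in deficient and -0.10 in engrafted mice, and limma called 0 there, with 1 and 0 under 0.05 before adjustment. Smooth muscle and pericyte markers, 6 of 6 measured, had means of 10.85 to 11.03 in naive and 10.43 to 10.78 in stroke wild-type arrays. The ranges were 10.71 to 11.14 and 10.79 to 10.86 in deficient mice, and 10.99 to 11.15 and 10.82 to 10.94 in engrafted mice. Cnn1, 1 of them, was called lower in wild type (-0.68, limma adjusted p = 0.016). Choroid plexus markers, 8 of 10 measured, with 0 called by limma and 0 under 0.05 before adjustment in any category, varied by array: Ttr lay between 9.03 and 10.17 in 5 arrays and at 13.03 or above in the other 13. Those 5 were wild-type stroke replicate 2, deficient naive replicates 1 and 3, deficient stroke replicate 2 and engrafted naive replicate 3. With the neuron and choroid plexus scores as covariates, the wild-type stroke differences were -1.51 for Nr4a1, -1.22 for Nr4a2 and -1.55 for Nr4a3. Without the 5 arrays lowest in Ttr, the deficient differences were -2.34, -1.80 and -2.37, with 1 deficient naive array left in the fit. In the order Nr4a1, Nr4a2, Nr4a3, these arrays deviated from their group means by -0.70, -0.45 and -0.17 (deficient naive replicate 3), 0.15, 0.00 and -0.26 (deficient naive replicate 1) and 0.56, 0.22 and 0.26 (deficient stroke replicate 2). Wild-type stroke replicate 2 deviated by -0.14, -0.11 and -0.49, and engrafted naive replicate 3 by -0.02, -0.11 and -0.02. Among these arrays, deficient stroke replicate 2 lay above its group mean in each gene, and deficient naive replicate 1 did so in Nr4a1. All other deviations were 0.00 or negative. Deficient naive replicates 1 and 3 both enter the naive deficient mean. The cause was not tested. Of 8 markers of the Ly6C-low monocytes that need Nr4a1, limma called 0 after stroke in any category and 1, 1 and 1 were under 0.05 before adjustment, with medians of 0.09, 0.18 and 0.06. Of 6 T cell markers it called 0, with 0, 1 and 0 before adjustment and medians of 0.01, 0.08 and -0.08. Neutrophil markers, 8 of 8 measured, had medians of 0.32, 0.85 and 1.28, with 1, 0 and 1 called higher by limma and 1, 4 and 8 under 0.05 before adjustment. The labels held for mast cells: Cpa3, a mast cell protease, lay between 5.66 and 5.82 in deficient arrays and at 8.39 or above in all others. Fibroblast markers, 9 of 9 measured, stood at a mean of 11.86 to 12.33 in every array, but single members moved: limma called 2 higher and 1 lower after stroke in wild type, 1 lower in deficient mice, and 1 higher and 1 lower in engrafted mice. Fmod, a collagen-binding matrix protein, fell in each category (-1.19, -0.56 and -0.67), Mgp rose in wild type (0.40) and engrafted mice (0.31), and Col3a1 rose in wild type (0.88). Also in wild type, limma called the mast cell marker Kit lower (-0.57) and the resident macrophage marker Lyve1 higher (0.79). Of the arachnoid barrier markers it called Cldn11 (0.43) and Crabp2 (0.72) higher and Ptgds (-0.28) lower there. These fibroblast, Kit, macrophage and arachnoid barrier genes and Cnn1 were named after their values were seen.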

How the data were processed

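Dura of 18 mice was measured on 1 Affymetrix array each. The deposited values are log2 levels; per the submitters' processing notes the tools were RMA, affy and R 3.0.0, and the role of each is not given in the sources used here. Array medians ran from 7.77 to 7.91, and no value was rescaled. Of 34760 probe sets, 21640 with exactly 1 gene symbol were tested; 1321 with several symbols and 11799 unnamed here were left out. Group means were fitted together with limma 3.58.1 in R 4.3.3 (lmFit, eBayes), with Benjamini-Hochberg adjustment over the 21640 probe sets within each comparison and a threshold of 0.05. The script was tested on simulated data. Precision is limited by the number of arrays, 3 per group. The members, gene lists and tests were chosen with earlier results of these data known. Genes named were the members, up to 4 per list by the smallest p of the averaged stroke difference, all 3 RXR genes, the 5 nearest genes of each member and marker genes, besides those said to be named after their values were seen. Where a gene had several probe sets, the one with the highest mean stands for it. Alternatives were a replicate block, only the compared groups, a second quantile normalization, dim probe sets left out, trended variance, array weights, all probe sets, each array left out, the 5 arrays lowest in Ttr left out, and tissue scores as covariates. Promoter windows came from RefSeq (GRCm38.p6), which held all 3 members. No batch is given by the labels.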

Additional observations from a re-analysis of the deposited data

How the results depend on the processing

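All stroke differences of the members stayed negative under each alternative. With tissue scores as covariates they were -1.51, -1.22 and -1.55 in wild type for Nr4a1, Nr4a2 and Nr4a3. Without the 5 arrays lowest in Ttr they were -2.34, -1.80 and -2.37 in deficient mice, where 1 naive array was left. Wild type went no lower than -1.95, -1.57 and -2.08 in any setting other than single arrays left out. The order from wild type to deficient mice thus did not hold without those 5 arrays. With array weights the Nr4a3 value in deficient mice was -1.48. In engrafted mice, settings other than single arrays left out gave -1.63 to -1.58 for Nr4a3. The deficient value with weights and the wild-type value with covariates were thus smaller falls than the engrafted one. Leaving out each array in turn gave -2.05 to -1.88 in wild type, -1.85 to -1.23 in deficient and -1.09 to -0.84 in engrafted mice for Nr4a1. The averaged engrafted minus wild-type difference of Nr4a1 passed the threshold with only the compared groups (-0.90, adjusted p = 0.013), without dim probe sets (-0.90, 0.0472), with array weights (-0.91, 0.0383) and without the 5 arrays (-0.93, 0.0174). Over single arrays left out it ran from -0.94 to -0.81 (adjusted p = 0.0185 to 0.165). That of Nr4a2 passed with only the compared groups (-0.43, adjusted p = 0.0408) and ran from -0.48 to -0.40 over single arrays. The deficient minus wild-type difference has no settled sign: for Nr4a2 it was 0.05 without the 5 arrays, 0.02 without deficient naive replicate 3, and ran from -0.20 to 0.02; for Nr4a3 it was -0.00 with array weights and -0.05 with covariates, and ran from -0.06 to 0.16. It was negative for Nr4a3 without wild-type naive replicate 1 (-0.01), deficient naive replicate 2 (-0.04), wild-type stroke replicate 2 (-0.06) and deficient stroke replicate 2 (-0.00). The causes were not tested.

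With the replicate block, Nr4a1 gave -0.90 (adjusted p = 0.0667) for engrafted minus wild type, and no member's call changed in the 3 tested category comparisons, while Sik1 lost its call (0.064). The replicate numbers do not pair the mice: over 45 same-number pairs of arrays the correlation of deviations had a median of -0.06 (-0.61 to 0.60), 11 pairs were over 0.1, and 4 of 18 arrays matched their own number best.

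Counts of called probe sets moved more than the members did. Deficient minus wild type (241) gave 145 with the block, 1444 with array weights, 158 with all probe sets, 49 without the 5 arrays and 146 with covariates (99 to 365 over single arrays). Engrafted minus deficient (7) gave 4 with only the compared groups and 12 with weights (6 to 18). Engrafted minus wild type (62) gave 17 with the block, 23 with only the compared groups, 176 with weights, 31 with all probe sets, 6 without the 5 arrays and 12 with covariates (10 to 105). Stroke in wild type (2352) gave 1440 with only the compared groups and 1368 without the 5 arrays (1371 to 2666). Stroke in deficient mice (54) gave 1, 1326, 15 and 206 with only the compared groups, weights, without the 5 arrays and with covariates (8 to 56). Stroke in engrafted mice (241) gave 146 with the block, 33, 394, 152, 98 and 530 with only the compared groups, weights, all probe sets, without the 5 arrays and with covariates (60 to 396).

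The deviations of Nr4a1 and Nr4a2 gave 0.69 by Spearman and 0.59 without the 2 outermost arrays. As a description without p, the mean deviation of other immediate early genes went with that of the members at r = 0.76, 0.63 by Spearman and 0.40 without deficient naive replicate 2 and deficient stroke replicate 2. That of the neuron markers gave 0.57 (0.23 without deficient naive replicate 2 and deficient stroke replicate 1) and that of the choroid plexus markers 0.29 (0.58 without wild-type stroke replicate 2 and deficient stroke replicate 2). No other probe set of a member was tested, since each has 1.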
